A study of Mus musculus with 8 samples.

Results

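Tight junctions are belts of contact that seal the space between neighbouring epithelial cells, and in the epidermis they lie in the granular layer, beneath the stratum corneum. Claudins and occludin cross the membrane and form the sealing strands, junctional adhesion molecules accompany them, and zonula occludens and cingulin proteins anchor the strands to the actin skeleton. Claudin 1 is known as an essential part of the skin's water barrier, since mice that lack it lose water through the epidermis.

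The 9 genes described here are the claudins Cldn1, Cldn4, Cldn7 and Cldn12, the strand protein occludin (Ocln), the junctional adhesion molecule F11r, the zonula occludens scaffolds Tjp1 and Tjp3, and cingulin (Cgn). They were chosen by name, and every probe set that the platform annotation gives exactly 1 of these symbols was taken. This gave 16 probe sets of the 45037 that are not controls. Each gene has a main probe set, the one with the highest mean over all arrays, as have all 18193 genes tested.

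Skin was taken from the back of female mice of the hairless strain Hos:HR-1 at 10 weeks of age. The animals ate the purified diet AIN-93G for 1 week, either plain (control) or with 2.0 g of collagen hydrolysate, a peptide mixture made here from fish scales, in 100 g of diet. The study had 16 mice, 8 on each diet and 4 in a cage, and the series holds 4 arrays of each diet, labelled as biological replicates. Both diets share the strain with its hairlessness and the base diet. Whole skin was used, so the epidermal genes were measured together with dermis, fat, muscle and hair follicles.

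The deposited log2 values hardly varied between arrays, and the range of the median gene over the 8 arrays was 9.16 millionths of a log2 unit. The summary method is not stated in the labels, so a difference on this scale may not equal a log2 fold change. Differences are therefore given in millionths of the deposited log2 unit, and some also in units of the SD within diets. Array collagen 4 stood apart for these genes, as described below, and the values without it are given beside those that it moves most. Precision is limited by the 4 arrays per diet.

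The stretches of DNA just before the transcription starts are shown for Cldn1, Tjp1, Tjp3 and Cgn, because each pair of them had r between 0.778 and 0.867 over the 8 arrays, though several of these relations weaken without 2 of the arrays, as given below. The sequences come from RefSeq (build GRCm38.p6), run 5′ to 3′ on the gene's own strand and end at the last base before the start. They lie on the minus strand at chr16:26371840-26372089 (Cldn1), chr7:65371245-65371494 (Tjp1), chr10:81291268-81291517 (the Tjp3 start that lies farther downstream) and chr3:94786483-94786732 (Cgn). Capitals mark matches, on either strand, to the 6 motifs named after the sequences.
Cldn1: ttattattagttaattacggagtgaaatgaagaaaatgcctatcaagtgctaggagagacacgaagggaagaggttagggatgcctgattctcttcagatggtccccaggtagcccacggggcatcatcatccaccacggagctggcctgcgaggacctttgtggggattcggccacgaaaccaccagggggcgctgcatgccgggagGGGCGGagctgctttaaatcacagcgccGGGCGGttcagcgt
Tjp1: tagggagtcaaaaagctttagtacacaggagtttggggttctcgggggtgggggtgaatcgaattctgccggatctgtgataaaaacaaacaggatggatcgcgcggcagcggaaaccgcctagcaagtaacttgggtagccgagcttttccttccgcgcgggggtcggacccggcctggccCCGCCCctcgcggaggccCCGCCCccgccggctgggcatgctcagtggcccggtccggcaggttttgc
Tjp3: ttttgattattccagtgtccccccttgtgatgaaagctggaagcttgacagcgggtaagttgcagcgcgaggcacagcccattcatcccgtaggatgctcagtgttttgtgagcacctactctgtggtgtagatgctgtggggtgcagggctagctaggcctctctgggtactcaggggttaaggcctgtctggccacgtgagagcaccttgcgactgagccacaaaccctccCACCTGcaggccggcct
Cgn: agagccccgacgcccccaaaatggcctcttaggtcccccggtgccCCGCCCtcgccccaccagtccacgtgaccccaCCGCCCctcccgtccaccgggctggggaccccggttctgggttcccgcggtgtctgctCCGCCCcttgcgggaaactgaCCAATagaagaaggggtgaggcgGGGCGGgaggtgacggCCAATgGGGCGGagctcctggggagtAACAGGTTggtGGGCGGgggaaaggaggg

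All 9 genes had a promoter entry, with 14 starts in all, and 250 bases before each start were searched on both strands. The GC box GGGCGG was found before 8 of the 9 genes, all but Tjp3, and before 35.4% of the 27025 genes in the table. The motif CACCTG, known to be bound by the repressors Snail and Zeb, was found before Cldn4, Cldn7, Ocln, Tjp3 and F11r, and before 19.4% of all genes. CCAAT was found before Cldn12, Ocln, Tjp3, F11r and Cgn (37.5% of all genes), and TGACTCA, bound by AP-1 factors, before Cldn4 and F11r (5.16%). AACCNGTT, the motif of Grainyhead-like factors, was found before Cgn alone (2% of all genes), in the stretch printed above that starts 29 bases before the start. TATAAA was found before none of the 9 (14.3% of all genes). Matches were counted motif by motif, also where they share bases, and they describe the letters in these windows only. A gene counted if any of its starts had a match, and the table holds 32851 starts for the 27025 genes. The members thus had more starts per gene, and so more windows for a match, than the table as a whole. The table was not limited to genes expressed in skin. The median GC content of all windows was 52.4%, while those of the members ran from 42% (Cldn12) to 70.4% (Cgn), most above that median.

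Among the claudins the main probe sets lay at 12.19 for Cldn1, 11.28 for Cldn4, 10.17 for Cldn12 and 7.75 for Cldn7 on the deposited log2 scale. This order was the same on every array and in both diets, since the gaps were far larger than any range over the arrays. Cldn1, Cldn4 and Cldn12 lay above 97.3%, 93.6% and 84.6% of all probe sets, and Cldn7 above 32.4%. The order is one of probe set values and not of transcript amounts, because each probe set has its own response. The 4 Cldn1 probe sets alone lay at 12.19, 9.30, 8.54 and 6.93.

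Of the other strand and adhesion genes, Ocln lay at 10.01 and F11r at 11.07. The scaffolds lay at 11.54 for Tjp1, 8.98 for Tjp3 and 9.17 for Cgn. The main probe sets of 8 of the 9 genes thus lay above 8.193, the median level on the array, and that of Cldn7 below it. No detection calls were used, so whether Cldn7 rose above background is unknown.

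The comparison of diets asks whether a week of collagen hydrolysate was accompanied by another level of these barrier genes. None of the 9 genes was separated from the spread between the arrays of a diet. By limma's moderated test 0 of 9 passed an adjusted p of 0.05 over all genes (0% of the 18193 genes passed), and each had an adjusted p of 0.999. At an unadjusted p under 0.05 there were 0 of 9, against 3.49% of all genes, and the diets overlapped in all 9, whereas they did not overlap in 2.02% of all genes. Of the members 6 lay higher with collagen and 3 lower (Cldn4, Cldn7 and Tjp1), beside 52.9% of all genes that lay higher. After median centring of the arrays, which moved the median t of all genes from 0.0664 to 0.693, all 9 lay higher.

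Cldn1 deviated from its mean over the arrays by 1.10, 1.37, -1.46 and -4.11 millionths in control 1 to 4. In collagen 1 to 4 it deviated by 4.55, 4.00, 5.20 and -10.6 millionths. The first 3 collagen arrays lay above all controls and collagen 4 lay below all of them. The difference, collagen minus control, was 1.56 ± 3.87 millionths (SE, n = 4 per diet), or 0.273 within-group SD, with a 95% interval from -7.75 to 10.9.

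Cldn4 lay at 20.2, 11.3, 8.97 and -1.53 millionths from its mean in the controls and at -14.8, 18.2, 4.49 and -46.7 in the collagen arrays. Collagen 1 and 4 lay below the controls, and collagen 2 and 3 lay among them. Its difference was -19.4 ± 14.2 millionths, or -0.931 SD, with an interval from -53.6 to 14.7 (35.7 millionths after median centring). Cldn7, the dim one, differed by -0.797 ± 0.455 millionths, or -1.36 SD, and its whole range over the 8 arrays was 1.86 millionths. That difference had the smallest unadjusted p of the 9 by limma's test, 0.126, and turned to 54.4 millionths after median centring and to 61.5 after quantile normalization.

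Cldn12 deviated by 4.37, -3.48, -13.8 and -3.88 millionths in the controls and by 5.0, 20.6, 7.66 and -16.5 in the collagen arrays. As for Cldn1, collagen 1 to 3 lay above all controls and collagen 4 below them, and the difference was 8.42 ± 8.22 millionths, or 0.697 SD.

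Ocln varied most on the deposited scale, with a range of 200 millionths over the arrays that was larger than that of 89.5% of all genes. Its deviations were 90.3, -35.9, -20.3 and -93.8 millionths in the controls and 81.7, -1.78, 89.2 and -109 in the collagen arrays. Both diets held high and low arrays, and the difference was 29.9 ± 57.9 millionths (-172 after quantile normalization). F11r, whose product accompanies the strands, lay highest in control 1 and collagen 1 (13.2 and 13.3 millionths) and lowest in control 3 (-14.5), with a difference of 5.17 ± 6.58 millionths.

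The scaffold Tjp1 deviated by 6.02, -2.09, 5.34 and -5.82 millionths in the controls and by 1.53, 7.53, 2.61 and -15.1 in the collagen arrays. Collagen 4 was the lowest array and collagen 2 the highest, and collagen 1 and 3 lay among the controls. The difference was -1.72 ± 5.49 millionths, and 53.5 after median centring. Tjp3 differed by 12.3 ± 17.8 millionths, with its highest value in collagen 2 (42.5) and its lowest in collagen 4 (-38.3). Cgn differed by 5.96 ± 10.9 millionths, with control 4 (-24.5) and collagen 4 (-19.8) below the other 6 arrays.

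**Figure D1:**
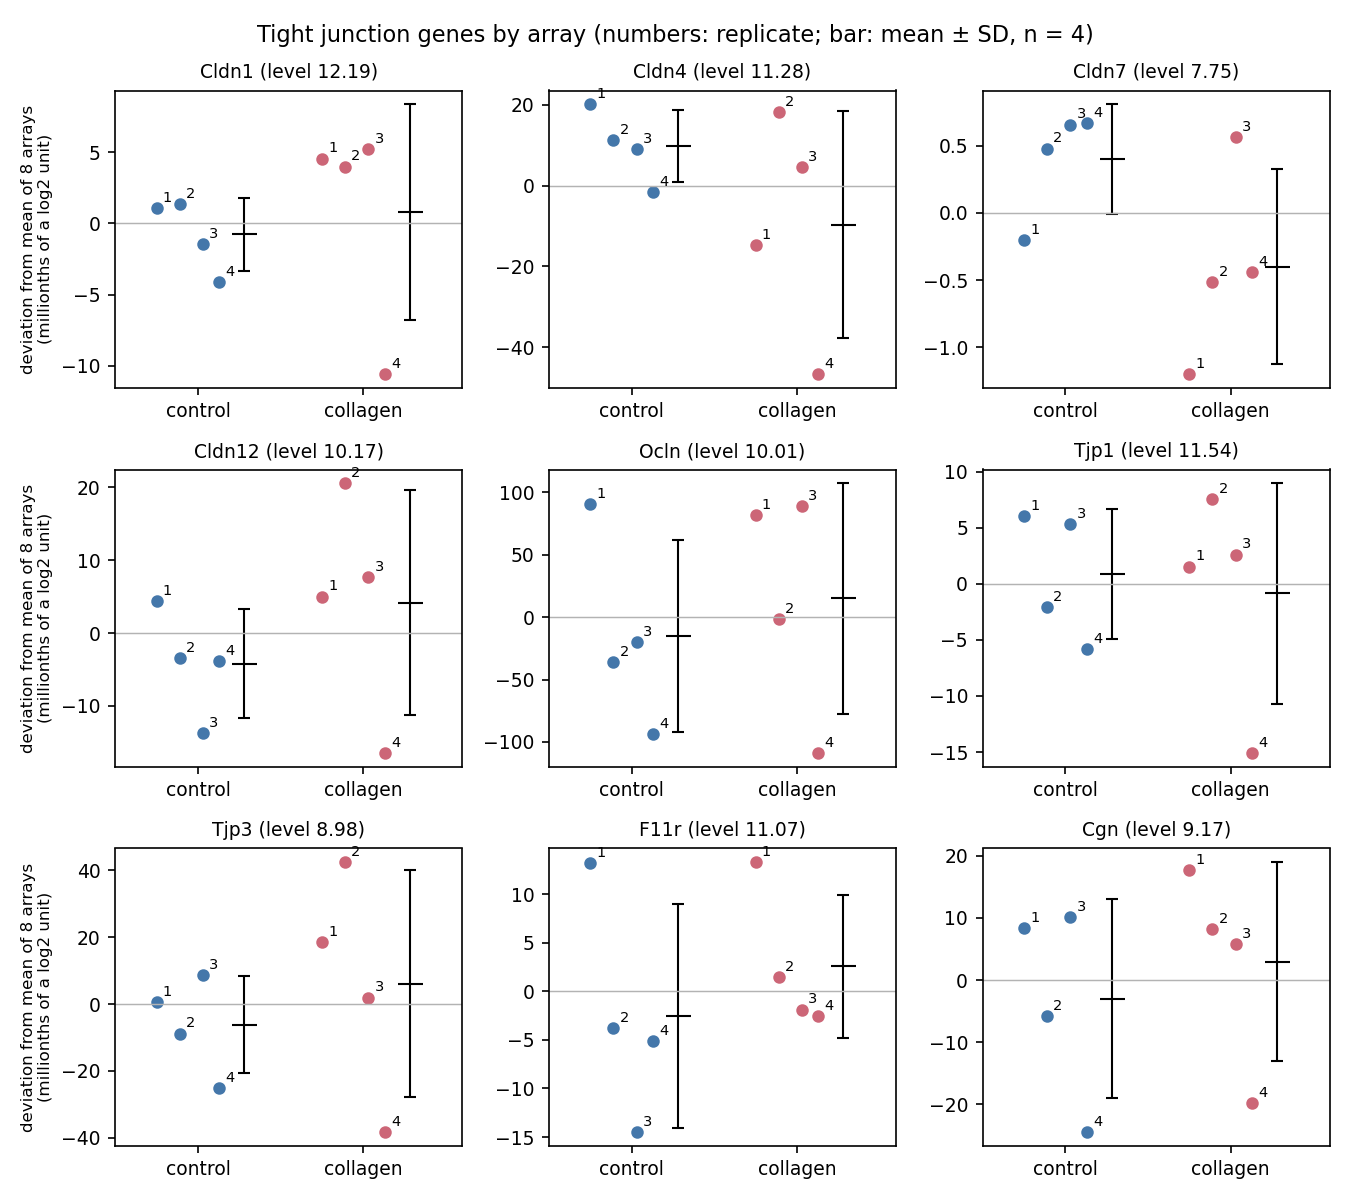
Deviation of each gene's main probe set from its mean over the 8 arrays, in millionths of a deposited log2 unit, for each control and collagen array; points are arrays numbered by replicate, and bars show the mean ± SD of 4 arrays. Collagen 4 is the lowest array for Cldn1, Cldn4, Cldn12, Ocln, Tjp1 and Tjp3, and no gene separates the diets.

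Collagen 4 was the lowest of the 8 arrays for 6 of the 9 genes, while 9.79% of all genes had their lowest value there. Left out, it changed the size of several differences but no call by limma's adjusted test (0 of 9 members, and 0% of all genes). Without it 7 of 9 lay higher with collagen, against 48.9% of all genes. Cldn1 then differed by 5.36 ± 1.49 millionths (2.65 within-group SD, unadjusted p = 0.0134, adjusted p = 0.528 by limma) and Cldn12 by 15.3 ± 5.72 (1.95 SD, unadjusted p = 0.0400, adjusted p = 0.566). In these 2 genes the 3 remaining collagen arrays lay above all controls, as they did in 4.75% of all genes. An unadjusted p under 0.05 was then reached by 8.53% of all genes. Cldn4 shrank to -7.10 ± 9.15 millionths (-0.566 SD). Tjp1 turned to 3.03 ± 3.58 millionths, Tjp3 lay at 27.1 ± 12.5 and Ocln at 71.3 ± 49.3. The array was left out because its values were low, so these numbers describe what it contributes and are no separate result.

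Other single arrays moved the differences too. Ocln lay at 3.60 millionths without control 4, 5.15 without collagen 3 and 7.63 without collagen 1, but at 65 without control 1. Tjp3 lay at 0.223 millionths without collagen 2 and at 5.99 without control 4. Cldn1 lay between 0.0817 (without collagen 3) and 0.482 (without collagen 2) when any of collagen 1 to 3 was left out, and at 0.443 without control 4. Cldn12 lay at 2.94 millionths without collagen 2 and at 5.21 without control 3, F11r at 1.18 without control 3, 1.59 without collagen 1 and 10.4 without control 1, and Cldn4 at -28.7 without collagen 2.

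**Figure D2:**
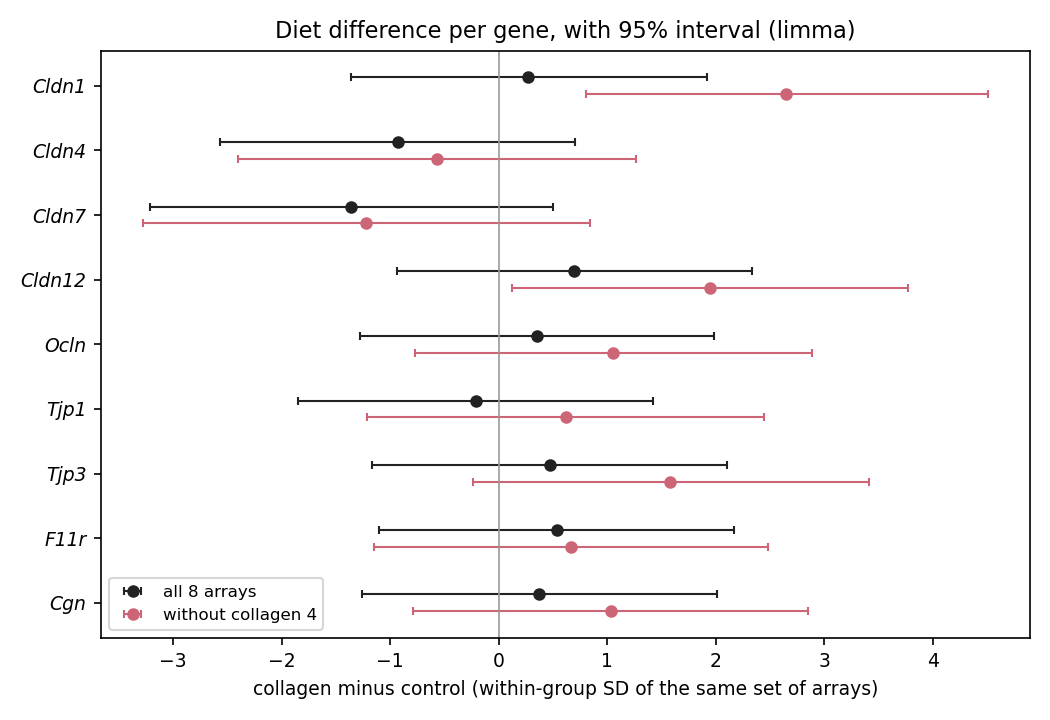
Collagen minus control for each gene, divided by the within-group SD of the same set of arrays, with limma's 95% interval; black uses all 8 arrays and red leaves out collagen 4. With all arrays every interval spans 0, and without collagen 4 those of Cldn1 and Cldn12 do not, although neither passed the adjusted test.

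Of the 7 further probe sets none passed either, so 0 of the 16 probe sets passed limma's adjusted test over all probe sets (0% of 45037 passed). The dimmest Cldn1 probe set (level 6.93) had the smallest unadjusted p, 0.0402, with a difference of 2.29 ± 0.895 millionths. Probe sets of one gene followed each other closely over the arrays for Ocln (Pearson r = 0.949, exact permutation p = 0.00171, adjusted over the 7 comparisons 0.0120; Spearman rho = 0.905, exact p = 0.00456, adjusted 0.0319). The relation held without the 2 arrays farthest from the median (r = 0.903). For Cldn12 r was 0.843 and for F11r 0.834 (both adjusted 0.0175 by the exact permutation test), with rho of 0.762 and 0.738 (both adjusted 0.107). These 2 relations weakened to r = 0.511 and 0.480 without the 2 farthest arrays. The other Cldn1 probe sets had r of 0.568, 0.686 and 0.384 with the main one, and that of Cgn 0.228, and these did not pass. The second Cgn probe set (level 8.00) had a range of 1.08 millionths, against 42.2 for the main one.

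Over the 8 arrays most members varied together in the values as deposited, but less so after quantile normalization, as given below. Of the 36 pairs of members, 12 (33.3%) had a Pearson r at or above 0.7, against 4.47% of all pairs of genes, and the median r was 0.575 against 0.01. An r above 0 was found in 29 of the 36 pairs and in 50.6% of all gene pairs. The 36 pairs rest on 9 genes, 8 arrays and a common normalization, so they are not independent. All gene pairs include those of dim genes, while all members but Cldn7 lay above the median level. No background matched for level was computed, here or below. The closest pairs were Tjp1 with Tjp3 (r = 0.867), Cldn4 with Tjp1 (0.853), Ocln with Cgn (0.839), Tjp3 with Cgn (0.828) and Tjp1 with Cgn (0.827). Cldn1 had r between 0.778 and 0.823 with Cldn12, Ocln, Tjp1, Tjp3 and Cgn.

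No pair passed an adjusted p of 0.05 by the exact permutation test over 40320 pairings: the smallest adjusted p over the 36 pairs was 0.0736 for r and 0.201 for rho, while 13 pairs had an unadjusted p under 0.05 for r and 6 for rho. With the diet means removed and arrays permuted within diets, 0 pairs passed and the smallest adjusted p was 0.0982. Only 576 such pairings exist, so a lone pair could not pass after adjustment over the 36 pairs. In the 21 pairs without Cldn7 and F11r the median r was then 0.8, against 0.768 with the diet means kept. Within a diet, 4 arrays are too few for a correlation. Without control 3 a pair of relations passed, Cldn12 with Tjp1 and with Tjp3 (both adjusted p = 0.0429 by the exact permutation test).

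Part of this common movement came with collagen 4. Without it 7 of 36 pairs (19.4%) had r at or above 0.7, against 5.85% of all gene pairs, and the median r was 0.396. Tjp1, Tjp3 and Cgn stayed close (0.752 to 0.805), as did Cldn1 with Ocln (0.760) and Ocln with Cgn (0.775). Cldn4 lost its relation to Cldn1 (r from 0.680 to -0.0471) and to Ocln (0.457 to -0.0367). Without the 2 arrays farthest from the median of the first gene of each pair, 5 of the 12 pairs stayed at or above 0.7 and the 12 ran from -0.109 (Cldn1 with Tjp1) to 0.980 (Tjp3 with Cgn). Without control 4 and collagen 4, Cldn1 also fell from r = 0.802 to 0.364 with Tjp3, from 0.778 to 0.214 with Cgn and from 0.819 to 0.539 with Ocln, and Tjp1 from 0.827 to 0.489 with Cgn and from 0.867 to 0.631 with Tjp3. These relations weakened without both arrays and that of Cldn1 with Tjp1 rests on them, while Cldn1 with Cldn12 kept r = 0.784.

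Cldn7 and F11r followed the other members least. Cldn7 had an r below 0 with 7 of the 8 other members. The lowest was with F11r (r = -0.751, exact permutation p = 0.0334, adjusted 0.100, and rho = -0.810, adjusted p = 0.201). The others below 0 ran from -0.00401 (Tjp1) to -0.375 (Cgn). Cldn7 was dim, with a level of 7.75 and a range of 1.86 millionths over the arrays. Against the mean z value of the other 8 members, Cldn1 had r = 0.922, Tjp1 0.920, Tjp3 0.802, Ocln 0.795, Cgn 0.773, Cldn12 0.732, Cldn4 0.719, F11r 0.287 and Cldn7 -0.284.

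**Figure D3:**
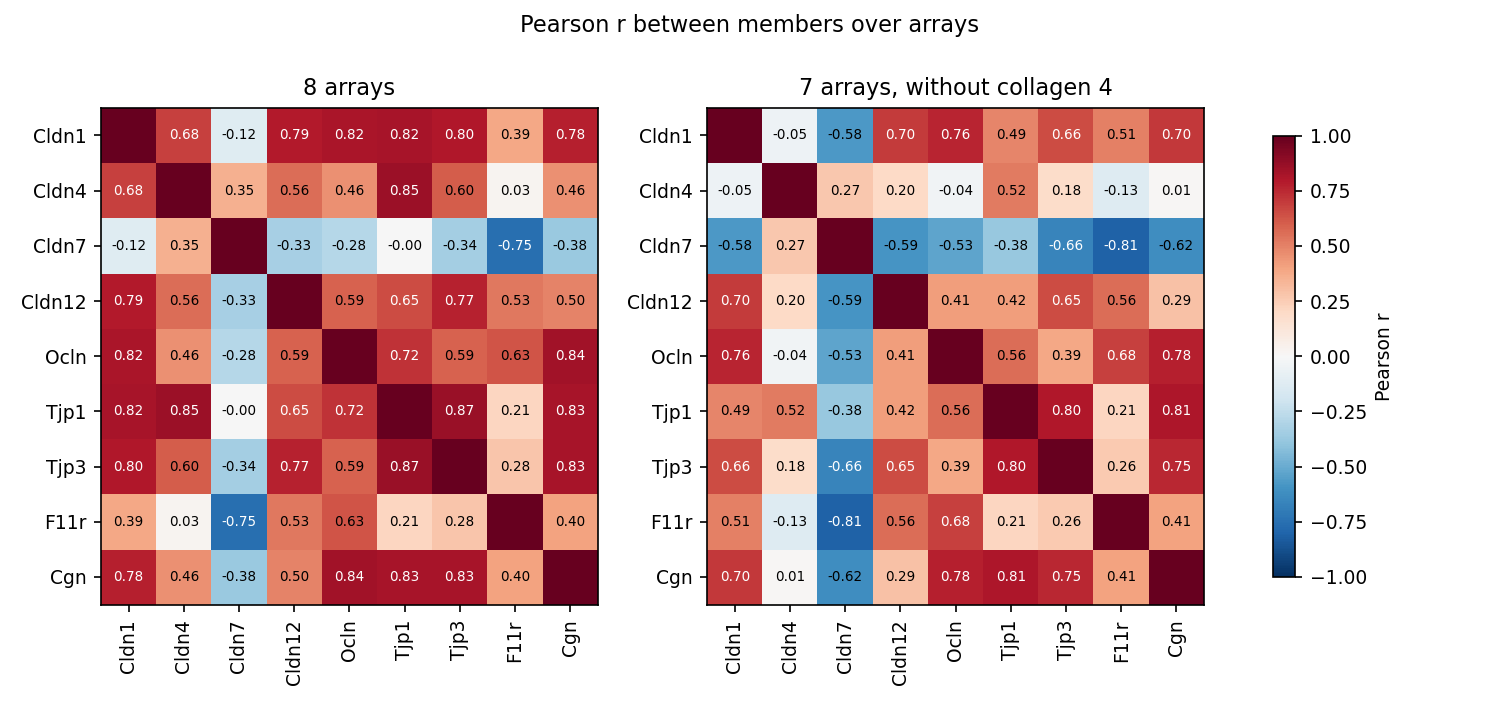
Pearson r between the main probe sets of each pair of members over 8 arrays (left) and over 7 arrays without collagen 4 (right), on a colour scale from -1 (blue) to 1 (red). The block of Tjp1, Tjp3 and Cgn keeps r of 0.752 or more in both panels, and Cldn4 loses most of its relations on the right. Cldn7, the dim gene, has r below 0 with most others in both, from -0.00401 to -0.751 on the left.

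The mean z value of the 9 members in each array was used as their common profile. It was 0.567, -0.0773, -0.0166 and -0.590 in control 1 to 4 and 0.379, 0.657, 0.482 and -1.40 in collagen 1 to 4. The 5 genes whose values were most like this profile, among 11589 at or above the median level, were Zdhhc5 (r = 0.974), Nipal4 (0.965), Cttnbp2 (0.964), Tfap2c (0.961) and Tmprss13 (0.955). Nipal4 is an epidermal gene mutated in a congenital ichthyosis. In all, 81 of these genes had r at or above 0.9, and without collagen 4 the 5 named genes had r between 0.895 and 0.956. These are descriptions over 8 arrays, and many genes reach high values by number alone.

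Other junction genes joined the profile in part, and 0 of the genes in any list below passed limma's adjusted test of diet. Among 16 regulators of epithelial junctions, 6 had r at or above 0.7 with the profile (37.5%, against 5.25% of all genes). They were Grhl1, a Grainyhead-like factor (0.950, and 0.942 without collagen 4), Tfap2a (0.857), Spint1 (0.849), Klf4 (0.824), Prss8 (0.769) and St14 (0.716). Without collagen 4 Tfap2a had 0.873, but Klf4 had 0.699, St14 0.627, Spint1 0.619 and Prss8 0.473. Grhl3 had r = 0.614 and Grhl2 r = 0.195. Among 11 adherens junction genes 4 did: Nectin2, a cell adhesion receptor (0.946), Cdh1, the epithelial cadherin (0.760), Nectin4 (0.750) and Ctnna1 (0.737). Without collagen 4 Nectin2 had 0.958 and Ctnna1 0.704, but Cdh1 had 0.551 and Nectin4 0.376, and the score of the adherens junction list went from 0.718 to 0.452 (0.301 without the 2 farthest arrays). These genes were picked out by their r after the values were seen.

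The 16 other claudins measured had a median r of -0.158, against -0.0956 for all genes outside the members. Of them 2 had r at or above 0.7 (12.5%, against 5.25% of all genes). These were Cldn23 (0.744) and Cldn8 (0.70), with 0.623 and 0.306 without collagen 4. Most of the 16 lay below the median level of 8.193, and whether those rose above background is unknown. Among those above it, Cldn3, Cldn5 and Cldn10 had r of -0.312, -0.154 and -0.0207. Of the 16 claudins 5 lay higher and 11 lower with collagen. Cldn3 differed by -10.1 ± 3.71 millionths (unadjusted p = 0.0324, adjusted p = 0.999 by limma) and Cldn10 by -226 ± 235. Cldn5, the claudin of blood vessel walls, differed by -0.0120 ± 1.17 millionths. Of 10 further membrane proteins 6 lay higher and 4 lower, with Lsr, a protein of tricellular contacts, at -1.38 ± 0.761 and Esam at -1.99 ± 1.38 millionths. Cxadr was the 1 of these 10 with r at or above 0.7 (0.813, and 0.848 without collagen 4).

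Of 19 scaffold and polarity genes 5 lay higher and 14 lower with collagen. Pard6g, a polarity complex subunit, differed by 6.17 ± 2.07 millionths (unadjusted p = 0.0222, adjusted p = 0.999 by limma) and Mpdz, a multi-PDZ scaffold, by -7.54 ± 4.05. In this list 3 genes (15.8%, against 5.25% of all genes outside the members) had r at or above 0.7 with the profile. They were Pard3 (0.857), Pard6b (0.803) and Ybx3 (0.783), which had 0.754, 0.646 and 0.483 without collagen 4. The median r of the 19 genes was 0.0368, and 9 of them had r below 0. Of the 16 regulators 12 lay higher and 4 lower, with Trp63, a master factor of stratified epithelium, at 62.0 ± 25.9 and Zeb2, an epithelial repressor, at -26.4 ± 18.9 millionths. The 11 adherens junction genes split into 5 higher and 6 lower, with Ctnnd1 at -21.3 ± 8.5 (unadjusted p = 0.0435, adjusted p = 0.999 by limma) and Nectin3 at 20.9 ± 10.3.

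Lists of cell type markers were set against the profile, and they differed in direction. In bulk skin fewer cells of a type and less RNA per cell cannot be told apart. The 12 epidermis markers, which were bright (Perp at 13.82 and Sbsn at 14.08, for example), had a mean z of -0.840 to 0.176 in the controls and -0.711 to 1.29 in the collagen arrays, lowest in control 4 and collagen 4. Their score had r = 0.708 with the profile (rho = 0.714), 0.684 without collagen 4 and 0.402 without the 2 arrays farthest from the median. Dsg1a, the desmoglein of upper epidermis (0.855), Sbsn (0.851), Dsc1 (0.824) and Perp (0.824) had the highest r of the 12. The basal keratins Krt5 (-0.296), Krt14 (0.248) and Krt15 (0.00769) had low values, as had Ivl (0.213, and 0.640 without collagen 4). Krt1 had 0.378, Flg 0.553, Lor 0.632 and Krt10 0.673, and these fell to 0.104, 0.261, 0.515 and 0.535 without collagen 4. Of the 12 markers 10 lay higher and 2 lower with collagen, among the former Ivl, a precursor of the cornified envelope, at 416 ± 229 millionths.

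The adipocyte, macrophage, endothelium, fibroblast and muscle scores had r below 0, and that of the melanocyte markers above 0. The score of 5 adipocyte markers had r = -0.803 with the profile (-0.648 without collagen 4, and -0.415 without the 2 farthest arrays). It ran from -0.787 to 0.718 in the controls and from -1.19 to 1.33 with collagen, highest in collagen 4. The score of 8 macrophage and Langerhans cell markers had r = -0.683 (-0.561 without collagen 4) and ran from 0.0232 to 0.669 in the controls and from -1.42 to 0.984 with collagen, again highest in collagen 4. The 9 endothelium markers had r = -0.572 (-0.688 without collagen 4) and the 9 fibroblast markers -0.407 (-0.292). The 10 skeletal muscle markers had r = -0.275, and -0.718 without collagen 4. Single genes departed from their lists, as Cd207 (0.054) and Myh2 (0.0908) did over 8 arrays. Endothelium scores ran from -0.0851 to 0.654 in the controls and from -1.33 to 0.337 with collagen. Fibroblast scores ran from -0.272 to 0.638 in the controls and from -1.58 to 0.566 with collagen, and all 9 fibroblast and all 9 endothelium markers lay lower with collagen, where 52.9% of all genes lay higher. Sebaceous gland, hair follicle and secretory epithelium markers had r of 0.0466, 0.136 and 0.0530, and 6 melanocyte markers 0.384 (0.547 without collagen 4). Of the secretory epithelium markers only Slc12a2 (level 11.9) lay above the median level of 8.193, so that list consists mostly of dim probe sets. On the collagen diet, higher means were found for 4 of 7 sebaceous gland, 2 of 10 hair follicle and 4 of 7 secretory epithelium markers. The same held for 1 of 10 muscle, 2 of 5 adipocyte, 1 of 8 macrophage and Langerhans cell, and 6 of 6 melanocyte markers, and for 4 of 5 housekeeping genes. The score of 5 housekeeping genes had r = -0.729 (-0.307 without collagen 4) and was highest in collagen 4 (0.934). The part of these markers in the common movement of the junction genes was not tested.

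**Figure D4:**
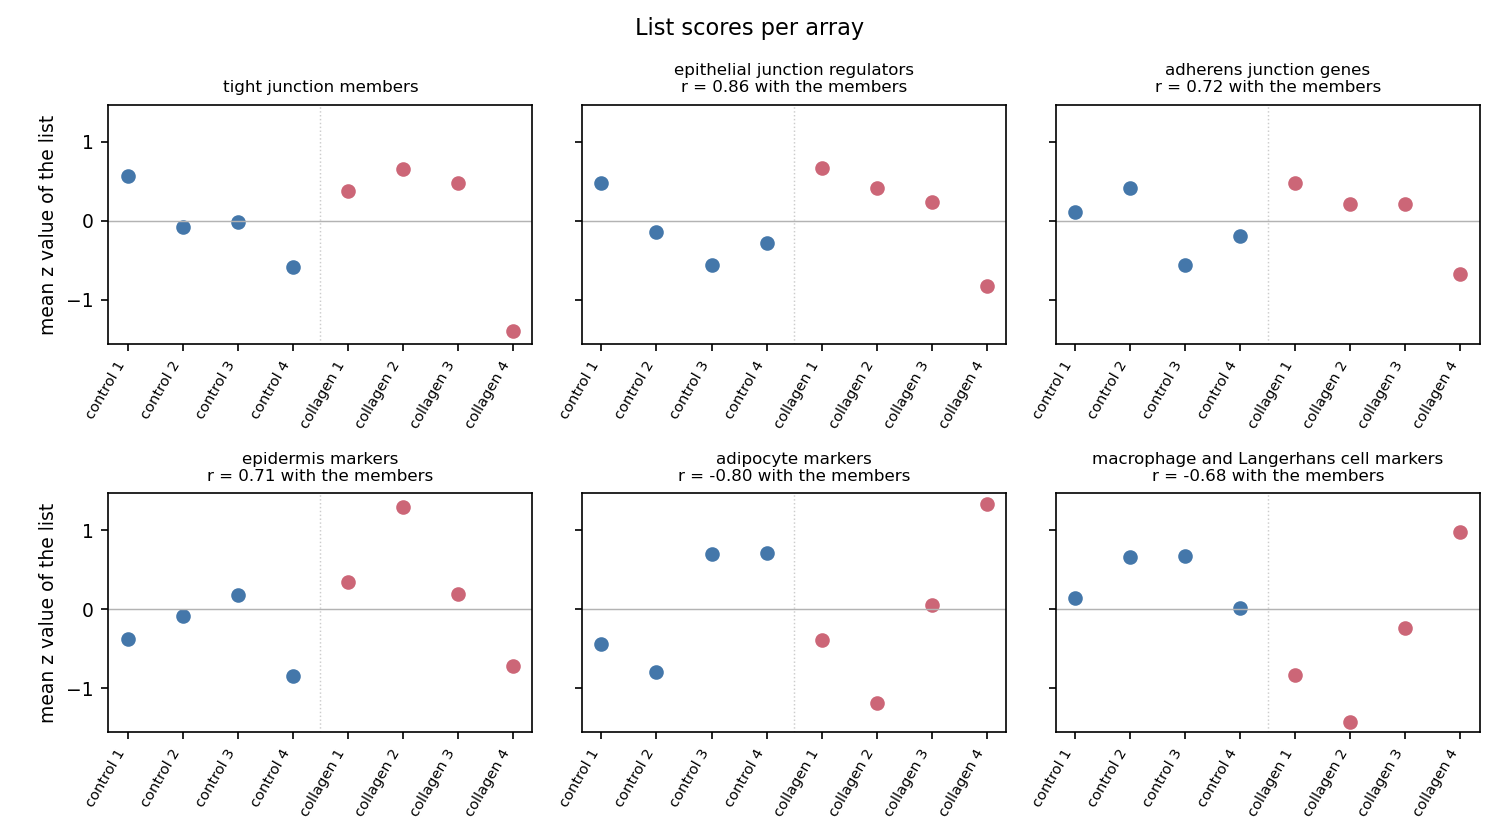
Mean z value of 6 gene lists in each of the 8 arrays (blue control, red collagen), with the Pearson r of each list's score and that of the tight junction members. In collagen 4 the members, junction regulators and adherens junction genes are at their lowest, and the adipocyte and macrophage markers at their highest.

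The array controls gave a measure of RNA integrity, the value of a 3′ probe set minus that of a 5′ probe set of the same transcript. For Gapdh this deviated from its mean by -308 millionths (control 4) to 495 millionths (collagen 1), and by 28.7 in collagen 4, and had r = 0.354 with the profile, and 0.655 without collagen 4. For Actb it deviated by -0.967 millionths in collagen 4 and by up to 1.05 in collagen 1, with r = 0.745, and 0.611 without collagen 4. Its part in the common movement was not tested.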

How the data were processed

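Gene expression was measured on 8 1-colour arrays of biotin-labelled RNA from dorsal skin, 4 per diet, per the labels' protocols. The authors deposited 1 table of log2 values. R 2.7.2 is named in the submitters' processing notes, which here give neither the summary and normalization steps nor a genome build. Array medians lay between 8.1927 and 8.1929.

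No further normalization was applied. Without 64 control probe sets, 45037 remained for testing: 34945 with 1 gene symbol, 932 with several and 9160 with none. The diets were compared in R 4.3.3 by limma 3.58.1 (lmFit and eBayes, two-sided), over all genes and over all probe sets, each adjusted by Benjamini-Hochberg (threshold 0.05). Correlations were tested by exact permutation in Python 3.11.15 with numpy 2.4.6 and pandas 2.3.3. Figures used matplotlib 3.10.9 and files were read with the data.table package (version 1.17.8). Both tests were tested on simulated data.

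The 17 lists (185 entries), of which the 9 members are 1, were chosen with earlier results of these data known. Named were all members, per list up to 2 genes of smallest p at or above level 8.193, and the 5 genes most like the members' profile; other names were chosen after their values were seen. List z scores are means of per-gene z values. Alternatives were left-out arrays, both scalings, a filter on dim genes, other variance models and tests, probe set means and the replicate block. The labels do not say which mice gave the arrays or from how many cages they came, so cage cannot be told apart from diet.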

Additional observations from a re-analysis of the deposited data

Results flagged for a closer look

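Within a diet, the array farthest from the others was compared with the spread of its group for each of the 16 probe sets and for the members' profile, 34 groups in all, where chance alone marks about 1 group in 20. In 4 groups the gap exceeded Dixon's 95% critical value for 4 samples. In the main Cldn1 probe set, collagen 4 lay below the other collagen arrays by a gap of 0.924 of the group's range. In the members' profile, collagen 4 (-1.40, against 0.379 to 0.657 in the other 3) lay apart by 0.865 of the range. In the dimmer Cgn probe set, collagen 1 (0.0955 millionths, against -0.271 to -0.216) lay above the others by 0.850 of the range. In the Cldn1 probe set at level 9.30, control 2 (-24.2 millionths, against 2.38 to 5.40) lay below the others by 0.898 of the range.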

How the results depend on the processing

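With 0 of 9 members and 0 of 16 member probe sets passing limma's adjusted test, each alternative also gave 0, left-out arrays included (0 to 0). One alternative, the exact permutation test of diet over 70 assignments, cannot give a p below 0.0286. After adjustment over 18193 genes its 0 was all but fixed in advance, so it adds nothing to the others. After quantile normalization the differences were 0 millionths for Cldn1, Cldn4 and Tjp1, 61.5 for Cldn7 and -172 for Ocln. After median centring they were 35.7 for Cldn4, 54.4 for Cldn7 and 53.5 for Tjp1. With 1 array left out, Cgn ran from -1.22 millionths without control 4 to 13.5 without collagen 4, and Tjp1 from -4.52 without collagen 2 to 3.03 without collagen 4. Median centring shifts all genes of an array by the same amount, so the differences of all 9 genes moved alike. That of Cldn1, for example, went from 1.56 to 56.7 millionths. The cause of the other changes was not tested. The other signs were kept in every alternative that gave a value; the filter on dim genes left out Cldn7.

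The number of member pairs past the exact permutation test was 0, from 0 to 2 with 1 array left out (2 without control 3), and 28 after median centring. Median centring moves all genes of an array together, and r in the 21 pairs without Cldn7 and F11r then ran from 0.861 to 0.999. After quantile normalization Cldn1 and Tjp1 had the same value on all arrays, and 0 of the remaining 21 pairs passed. In those of them without Cldn7 and F11r, r had a median of 0.149 and ran from -0.535 to 0.618. In the deposited values the 21 pairs without Cldn7 and F11r, those of Cldn1 and Tjp1 included, had a median r of 0.768.

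The replicate numbers are shared by both diets. Same-numbered arrays correlated between 0.0111 and 0.362 in their deviations from the diet means. Among the 4 arrays of the other diet, 4 of 8 arrays correlated best with their own number. These values do not settle whether the numbers mark pairs. The labels name no pairs, so the main fit took none. With the replicate block 0 of 9 members and 0 of 16 probe sets passed. Signal over background is unknown.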

Other observations

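Outside the junctions, the 4 smallest unadjusted p among the named marker genes belonged to immune and pigment cells. Langerin (Cd207), a lectin that marks Langerhans cells, differed by -24.0 ± 6.94 millionths (collagen minus control, SE, unadjusted p = 0.0119, adjusted p = 0.999 by limma), and Itgax by -151 ± 47.2 (unadjusted p = 0.0170, adjusted p = 0.999). The melanocyte genes Tyrp1 and Dct, enzymes of melanin synthesis, differed by 3590 ± 1390 and 1560 ± 609 millionths (unadjusted p = 0.0386 and 0.0401, both adjusted p = 0.999 by limma). None of these passed the adjusted test.

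Against the direction of the members ran Rab13, a small GTPase of tight junction traffic, with r = -0.864 with their profile (-0.734 without collagen 4), and Arhgef2, a junction-bound exchange factor, with r = -0.734 (-0.692 without collagen 4). Rab13 differed between diets by -10.2 ± 12.4 millionths (adjusted p = 0.999 by limma). Cldn3 had r = -0.312 with the profile over 8 arrays and -0.861 without collagen 4. These genes were picked out after their values were seen, and the values are descriptions over 8 arrays.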
